A study of Mus musculus with 12 samples.

Results

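The genes described here are Xlr3a, Xlr3b, Xlr3c, Xlr4a, Xlr4b and Xlr4c, 6 of the 54532 genes measured, taken by their symbols as reported targets of the chromatin remodeller ATRX in neurons. They form 2 families of 3 near-identical copies within 191 kb of the mouse X chromosome. Total RNA depleted of ribosomal RNA was sequenced from hippocampi of 3-month-old mice in 12 libraries. There were 3 control females, 3 Atrx-cKO (conditional knockout) females, 3 control males and 3 Atrx-cKO males. The series title places the deletion in neurons, and the study is known to have used a floxed Atrx allele with Cre driven by the CaMKII promoter, active in excitatory neurons of the forebrain. Other cells of the hippocampus therefore keep the gene in cKO mice. The labels do not say which libraries come from paired animals, so the tests treat libraries as unpaired except where a replicate block is named. The p-values rest on the spread between these libraries within their groups, and any pairing is not accounted for.

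The Xlr (X-linked lymphocyte-regulated) genes encode proteins related to SYCP3, a component of the synaptonemal complex that joins chromosomes in meiosis. The family is best known from lymphocytes and germ cells. In mouse brain, Xlr3b, Xlr4b and Xlr4c have been reported as imprinted, with the copy on the maternal X chromosome expressed. Xlr3b protein has been reported to join ribonucleoprotein granules with TIA1 and to bind the dendritic mRNA of Camk2a, and its transcript has been reported to be raised in neurons of mice with an Atrx mutation. ATRX places the histone variant H3.3 at repetitive and silenced DNA together with its partner DAXX.

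On GRCm38.p6 the cluster runs from Xlr4a (ENSMUSG00000079845, chrX:73074345-73082478, minus strand) and Xlr3a (ENSMUSG00000057836, chrX:73086293-73097095, minus strand) to a further group of 4 genes. These are Xlr3b (ENSMUSG00000073125, chrX:73192207-73202930, plus strand), Xlr4b (ENSMUSG00000067768, chrX:73214333-73222453, plus strand), Xlr4c (ENSMUSG00000031362, chrX:73233688-73243130, minus strand) and Xlr3c (ENSMUSG00000058147, chrX:73254540-73265390, minus strand). All are annotated as protein-coding, with 29 transcripts in all.

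The copies differ by few bases, which limits how well reads can be assigned to a given copy. The coding sequences of Xlr3b and Xlr3c (681 bases each) were 99.4% identical, with 4 substitutions. Xlr3a was 96.0% identical to either, with 12 substitutions and 15 gap positions. Xlr4a, Xlr4b and Xlr4c (648 coding bases each) were 98.9 to 99.5% identical, whereas an Xlr3 and an Xlr4 gene shared 56.2 to 58.3%. Stretches of 60 coding bases that hold the most differences are shown from the GENCODE M21 transcripts to let the eye find them. Capitals mark the 3 positions at which the copies of a family differ within the stretch, out of 14 in the whole aligned coding sequence of Xlr3 and 8 in that of Xlr4. The stretch starts at coding base 174 in Xlr3a, 189 in Xlr3b and Xlr3c, and 508 in the Xlr4 genes.
Xlr3a: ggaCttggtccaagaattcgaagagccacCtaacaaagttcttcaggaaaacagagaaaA
Xlr3b: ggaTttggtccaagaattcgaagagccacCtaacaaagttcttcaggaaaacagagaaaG
Xlr3c: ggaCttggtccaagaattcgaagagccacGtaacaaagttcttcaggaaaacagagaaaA
Xlr4a: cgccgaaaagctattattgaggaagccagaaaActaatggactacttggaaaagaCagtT
Xlr4b: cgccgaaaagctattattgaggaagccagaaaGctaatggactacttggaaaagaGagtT
Xlr4c: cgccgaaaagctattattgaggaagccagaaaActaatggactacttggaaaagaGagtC

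A window of 76 bases, the read length inferred from the coverage values, was slid along every annotated transcript of each gene. Of these windows, 67.4% in Xlr3a, 55.3% in Xlr3b and 41.1% in Xlr3c occurred in no other gene. The share was 32.1% in Xlr4a, 55.8% in Xlr4b and 42.8% in Xlr4c. Copies of the same family held most of the shared windows, from 29.5% in Xlr3a to 64.6% in Xlr4a, and the pseudogenes Xlr3d-ps, Xlr3e-ps, Xlr4d-ps and Xlr4e-ps held others. Values of single copies are therefore uncertain, and the sums over Xlr3a, Xlr3b and Xlr3c and over Xlr4a, Xlr4b and Xlr4c are given beside them.

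**Figure D1:**
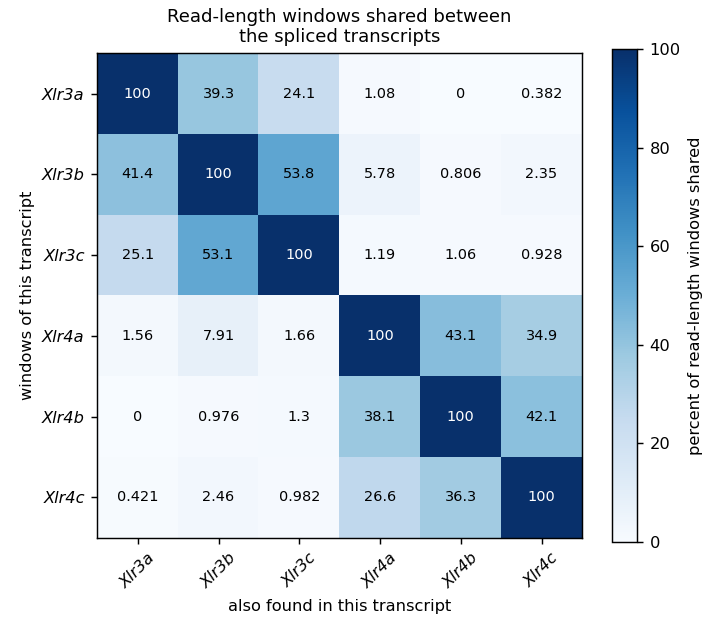
Percent of the read-length windows of each member's spliced transcript (rows) that also occur in the spliced transcript of another member (columns). Xlr3b shared 53.8% of its windows with Xlr3c and 41.4% with Xlr3a, and at most 7.91% of a transcript's windows were shared between the 2 families.

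The promoters were also alike within a family, a little less than the coding sequences. Where the RefSeq windows of 250 bases upstream of the start overlap, Xlr3b and Xlr3c were 98.3% identical, Xlr3a and Xlr3b 93.1%, and the Xlr4 genes 98.2 to 99.1% to each other. The 150 bases before the RefSeq start (GRCm38.p6) are shown for Xlr3b, Xlr3c and Xlr4b, to let the near-identical Xlr3 pair be set against an Xlr4 copy, with every CCAAT box in capitals. They lie as follows: Xlr3b at chrX:73192029-73192178 (plus strand), Xlr3c at chrX:73265391-73265540 (minus strand) and Xlr4b at chrX:73214183-73214332 (plus strand).
Xlr3b: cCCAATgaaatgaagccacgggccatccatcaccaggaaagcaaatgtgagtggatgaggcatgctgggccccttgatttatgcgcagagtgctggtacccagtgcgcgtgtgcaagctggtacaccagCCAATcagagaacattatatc
Xlr3c: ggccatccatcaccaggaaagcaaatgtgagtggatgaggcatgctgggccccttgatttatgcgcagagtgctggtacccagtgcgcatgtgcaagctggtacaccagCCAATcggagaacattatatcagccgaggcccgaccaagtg
Xlr4b: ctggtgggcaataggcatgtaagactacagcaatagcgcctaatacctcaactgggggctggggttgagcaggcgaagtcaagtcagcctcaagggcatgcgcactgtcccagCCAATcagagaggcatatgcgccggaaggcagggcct

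A CCAAT box, in either orientation, occurred in the 250 upstream bases of all 6 genes, against 33.8% of 32851 promoters. The longest string common to all 6 windows was CAGCCAATCAGAGA, 14 bases that include a CCAAT box. It occurred once in each of the 6 genes, and on either strand in 16 of the 32851 promoters (0.0487%), the 6 members included. The genes of a family are copies of each other, so these are not separate occurrences. The 250 bases held 3 to 8 CpG sites per gene, with a median of 6 over all promoters.

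Mapped sequence of females ran from 3.60 to 7.90 Gb for controls and from 1.16 to 4.26 Gb for cKO. That of males ran from 7.12 to 8.19 Gb for controls and from 3.66 to 8.64 Gb for cKO. Deposited values are in FPKM, which counts mapped fragments relative to transcript length and to library size. Olfactory and vomeronasal receptor genes, silent in hippocampus, were covered at a median FPKM of 0.0863 to 0.600 in the controls and 0.304 to 2.25 in the cKO libraries of females. In males this background was 0.00664 to 0.0274 for controls and 0.0178 to 0.286 for cKO. Background was therefore lower in males apart from cKO male 2, and the control and cKO ranges of females overlapped. The libraries that stood above the others of their sex were cKO females 2 and 3 and cKO male 2. The main values below are net FPKM: the bases assigned to a gene per length of its merged exons, less the background of the same library, scaled between libraries, with negative values set to 0.

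The summed level of 7 markers of hippocampal excitatory neurons was 447 to 473 net FPKM in females and 352 to 396 in males, so neuronal RNA was present in every library. Snap25 alone had a mean of 210 net FPKM, and the sum by itself does not identify the hippocampus. Between control males and control females 2 of the 7 were called, both lower in males, against 6.38% of all genes called. They were Prox1 (log2 -0.57, limma adjusted p = 0.0244) and Wfs1 (log2 -0.88, limma adjusted p = 0.00266). The sum of 10 lymphocyte markers was 1.38 to 4.36 net FPKM over the 12 libraries. Only the immunoglobulin chain Ighm among them reached a mean of 0.5 net FPKM, and the defining T and B cell markers Cd3e and Cd79a had means of 0.016 and 0.031.

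Atrx, the deleted gene, separated cKO from control libraries without overlap within each sex. Control females 1 to 3 had 11.2, 12.6 and 11.6 net FPKM and cKO females 5.70, 6.22 and 6.73. Control males had 10.02, 10.2 and 10.3 net FPKM and cKO males 6.70, 6.41 and 8.68. The log2 change was -0.87 in females (limma adjusted p = 0.0212), -0.47 in males (limma adjusted p = 1) and -0.67 as the mean of both sexes (limma adjusted p = 0.0131, exact permutation p = 0.005, the smallest this design allows). Over 24 other settings the limma adjusted p in females lay between 0.000336 and 0.139, and 14 passed 0.05. Leaving out any control female, cKO female 2, control male 1 or control male 2 ended the call in females, and leaving out control female 1 or 2, any control male or cKO male 1 ended that of the mean, with little change in its size (-0.82 to -0.93 and -0.63 to -0.74). In bulk tissue, fewer cells of a type and less RNA per cell cannot be told apart.

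Xlr3b, the member reported to bind dendritic mRNA, had the highest mean level per length of the 6 genes in both groups of males. Its deposited FPKM was 0.724, 2.68 and 0.805 for control females 1 to 3 and 1.43, 1.61 and 3.22 for cKO females 1 to 3. It was 5.25, 1.76 and 3.10 in control males and 4.70, 2.03 and 4.54 in cKO males. On this scale control and cKO overlapped in both sexes, and the highest females reached the middle of the male range. Net of background, Xlr3b was at 0.287, 1.22 and 0.116 FPKM in control females and at 0.732, 0 and 1.35 in cKO females. The males had 2.48, 0.853 and 1.32 net FPKM in controls and 2.15, 0.844 and 2.13 in cKO. Control male 2 and cKO male 2 were the low libraries of their groups, and cKO female 2 fell to the background of its library. Group means in net FPKM were 0.541 ± 0.593 for control and 0.695 ± 0.677 for cKO females (SD, n = 3). They were 1.55 ± 0.835 for control and 1.71 ± 0.747 for cKO males (SD, n = 3). The order of the groups was thus cKO males, control males, cKO females, control females, and neighbouring groups within a sex differed by less than 1 SD.

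**Figure D2:**
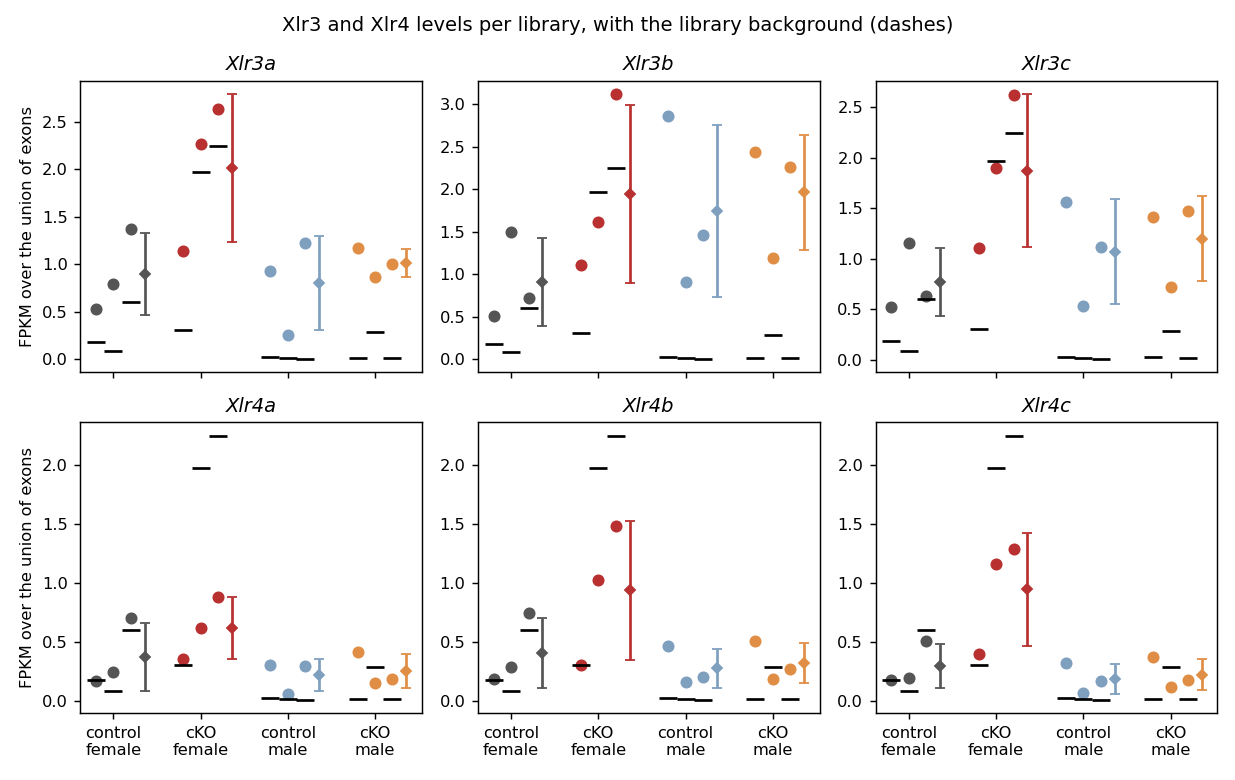
FPKM over the merged exons of each member (vertical axis) in every library (points), with the mean and SD of each group of 3 (diamonds and bars) and the background of each library (black dashes), before subtraction. Males lie clear of their dashes except for the Xlr4 genes in cKO male 2, whereas the cKO females with the highest points also have the highest dashes.

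Xlr3a and Xlr3c followed the same plan at lower net levels in males. Net FPKM of Xlr3a was 0.310, 0.609 and 0.747 in control females and 0.762, 0.447 and 0.593 in cKO females. In control males it was 0.788, 0.237 and 1.11, and in cKO males 1.02, 0.548 and 0.934. The female groups overlapped and so did the male groups, with the lowest value of all 12 in control male 2. Net FPKM of Xlr3c was 0.297, 0.920 and 0.0306 in control females and 0.728, 0 and 0.579 in cKO females. In control males it was 1.34, 0.494 and 1.01, and in cKO males 1.24, 0.403 and 1.37. Here cKO male 2 was lowest among males, below every other male library.

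The Xlr3 sum was 0.894, 2.75 and 0.894 net FPKM for control females and 2.22, 0.447 and 2.52 for cKO females. It was 4.61, 1.58 and 3.45 in control males and 4.41, 1.79 and 4.43 in cKO males. Control and cKO overlapped in each sex. The estimated number of reads behind the sum was 279 to 1109 in females and 440 to 1806 in males.

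The Xlr4 genes were low in every group. Net FPKM of Xlr4a in females was 0, 0.140 and 0.102 for controls and 0.0471, 0 and 0 for cKO, and in males 0.239, 0.0476 and 0.260 for controls and 0.355, 0 and 0.161 for cKO. Xlr4b had 0.00445, 0.175 and 0.140 net FPKM in the female controls and at most 4.37e-05 in the female cKO libraries, and in males 0.385, 0.143 and 0.179 for controls and 0.433, 0 and 0.237 for cKO. Xlr4c ran from 0 to 0.0915 net FPKM in the 6 females, 0.0533 to 0.255 in control males and 0 to 0.310 in cKO males. All 3 copies were at 0 in cKO females 2 and 3 and in cKO male 2, the libraries with the highest background of their sex. The Xlr4 sum rested on 94 to 302 estimated reads in females and 47 to 309 in males. None of the 3 copies reached the mean of 0.5 net FPKM asked of a gene for the fit, whereas Xlr3a, Xlr3b and Xlr3c did, so 3 of the 6 members were fitted.

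Background was then set beside a family of the same superfamily, Xlr5a, Xlr5b and Xlr5c. The mean of the Xlr5 genes stayed within 0.432 and 2.81 times the receptor background in the 12 libraries. The mean of the Xlr3 genes was 44.1 to 191 times the background in control males and 81.5, 3.23 and 88.9 times in cKO males 1 to 3. In females the ratio was 2.89, 13.3 and 1.51 in controls and 3.67, 0.977 and 1.24 in cKO. The mean of the Xlr4 genes was 7.65 to 33.2 times the background in control males, 21.03, 0.531 and 11.8 times in cKO males 1 to 3 and 0.474 to 2.82 times in the 6 females. At this background, RNA of Xlr4 was not detectable apart from the level of receptor genes in most females.

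**Figure D3:**
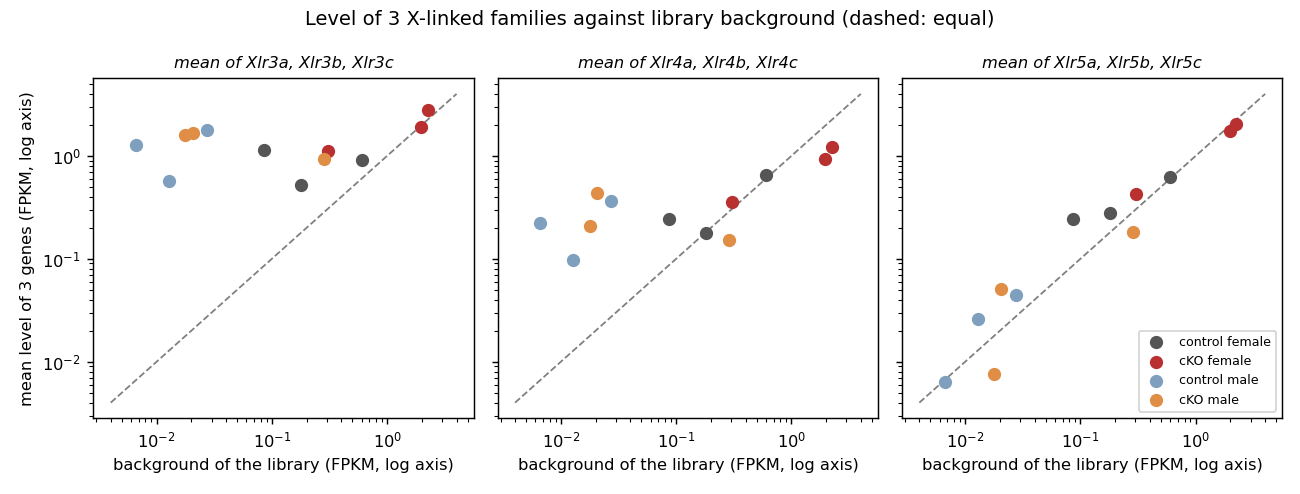
Mean FPKM of the 3 Xlr3, 3 Xlr4 and 3 Xlr5 genes (vertical, log axis) against the receptor-gene background of the same library (horizontal, log axis), 12 libraries, with a dashed line where both are equal. The Xlr5 genes follow the line in every library within 0.432 to 2.81 times, Xlr3 lies far above it in 5 of 6 males, and cKO females 2 and 3 lie near it, at 0.977 and 1.24 times.

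In females, no Xlr3 or Xlr4 member was called between cKO and control. The log2 change was 0.07 for Xlr3a (95% interval -0.67 to 0.82), 0.15 for Xlr3b (-1.05 to 1.35) and 0.05 for Xlr3c (-1.01 to 1.11), with limma adjusted p of 0.888, 0.857 and 0.952. Of 22429 genes tested, 0.0758% passed the adjusted threshold of 0.05. No member had an unadjusted p under 0.05, which 38.8% of all genes had. The median change over all genes was 0.11, so the 3 values lie at or near it. The direction turned with the libraries used: without control female 3 the change of Xlr3b was -0.15, without cKO female 3 it was -0.26, and without cKO female 2 it was 0.68. The change of Xlr3a turned to -0.11 without control female 1 and -0.03 without cKO female 1, and that of Xlr3c to -0.29, -0.20 and -0.11 without control female 3, cKO female 1 or cKO female 3.

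The 3 copies of Xlr4 were compared by exact permutation (two-sided), which within a sex cannot give a p below 0.1. In females the mean log2(net FPKM + 0.5) changed by -0.16 in Xlr4a (exact p = 0.4), -0.27 in Xlr4b (exact p = 0.1) and -0.01 in Xlr4c (exact p = 0.7). Xlr4b was the only member whose groups did not overlap, with all 3 cKO females below all 3 controls, and 6.07% of tested genes were lower in this way and 14.3% higher. Control female 1 had 0.00445 and the highest cKO female 4.37e-05 net FPKM, so the gap lies at the background itself. The size of the Xlr4b difference moved with the setting, to -0.93 with a pseudocount of 0.1, to -0.14 with a pseudocount of 1 or with the Xlr5 genes as background, and to 0.29 without subtraction. On the deposited values the direction was opposite, with Xlr4b at 0.955 ± 0.777 FPKM in control and 2.14 ± 1.20 in cKO females (SD, n = 3) and a log2 change of 0.86 (exact p = 0.2). Xlr4a and Xlr4c turned likewise, to 0.50 (exact p = 0.3) and 1.07 (exact p = 0.2). The deposited values include the background, which was highest in cKO females 2 and 3.

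In males the background was low in 5 of 6 libraries, and no member was called either. The log2 change was 0.19 for Xlr3a (95% interval -0.55 to 0.94), 0.12 for Xlr3b (-1.08 to 1.32) and 0.03 for Xlr3c (-1.03 to 1.09), each at a limma adjusted p of 1. The share called among all genes was 0.00446%, no member had an unadjusted p under 0.05 (1.61% of all genes), and the median over all genes was 0.06. Xlr4a, Xlr4b and Xlr4c differed by -0.04, -0.06 and -0.01 (exact permutation p = 1 each). The signs turned with single libraries: the values were 0.15, 0.19 and 0.16 without cKO male 2, and -0.23, -0.26 and -0.18 without cKO male 1. Without control male 1 they were 0.02, 0.09 and 0.10, without control male 2 -0.19, -0.15 and -0.13, and without control male 3 Xlr4a was at 0.04. On the deposited values the 3 copies had 0.11, 0.19 and 0.21. In net FPKM no member's groups separated, against 7.84% of genes higher and 3.79% lower without overlap. The spliced Xlr4b transcripts of 9 exons, taken alone, did separate, with a log2 difference of 0.51 that was not tested. Their deposited FPKM was 0.00948 to 0.092 in control males and 0.126 to 0.785 in cKO males. The value of cKO male 2, 0.126, lay below the background of its library, 0.286. In net FPKM, control male 2 was the lowest control male for each of the 6 members. Without it the changes became -0.13 for Xlr3a, -0.15 for Xlr3b and -0.22 for Xlr3c. Without cKO male 2 they were 0.36, 0.44 and 0.36. Without cKO male 1 or cKO male 3, Xlr3b turned to -0.05 and -0.04 and Xlr3c to -0.11 and -0.17.

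**Figure D4:**
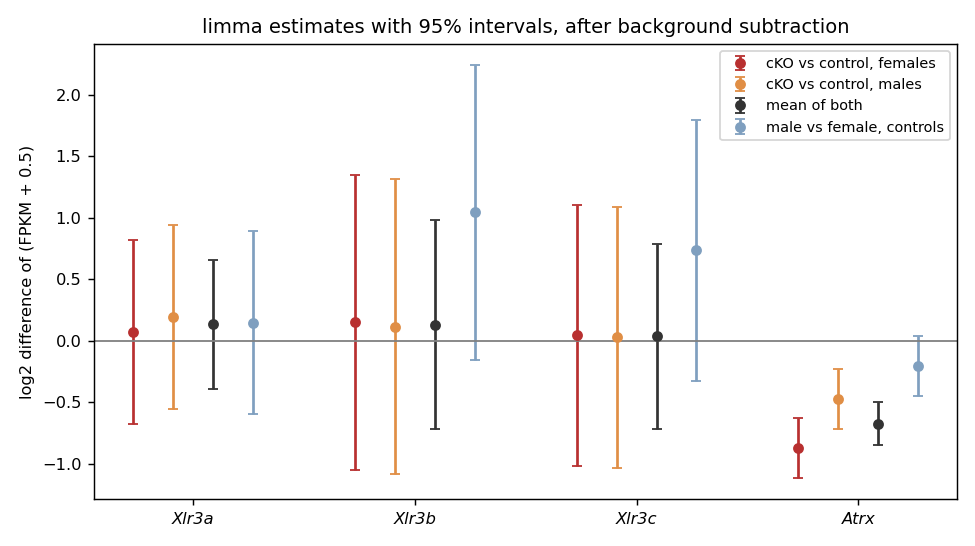
limma estimates of the log2 change of Xlr3a, Xlr3b, Xlr3c and Atrx with 95% intervals (vertical axis, log2 of net FPKM + 0.5), for cKO against control in females, in males and as the mean of both, and for control males against control females. Every Xlr3 interval spans 0, whereas the 3 Atrx intervals for cKO against control lie below 0.

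The effect of the deletion did not differ detectably between the sexes. The male change less the female change was 0.12 for Xlr3a (95% interval -0.93 to 1.17), -0.03 for Xlr3b (-1.73 to 1.66) and -0.02 for Xlr3c (-1.52 to 1.48), with limma adjusted p of 0.903, 0.984 and 0.990. In this comparison 0% of genes passed the adjusted threshold, and 8.77% had an unadjusted p under 0.05, with no member among them. As the mean of both sexes, the change was 0.13 for Xlr3a (-0.39 to 0.66), 0.13 for Xlr3b (-0.71 to 0.98) and 0.04 for Xlr3c (-0.71 to 0.79), with limma adjusted p of 0.723, 0.834 and 0.951. Here 0.0223% of genes were called and 26.1% had an unadjusted p under 0.05, again with no member. The permutation of labels within both sexes gave changes of -0.10, -0.16 and -0.01 for Xlr4a, Xlr4b and Xlr4c (exact p = 0.48, 0.365 and 0.905).

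Between control males and control females, Xlr3b was higher in males by 1.05 on the log2 scale (95% interval -0.15 to 2.25), the largest difference of any member, and did not pass (limma adjusted p = 0.343). Xlr3c differed by 0.74 (-0.32 to 1.80, limma adjusted p = 0.466) and Xlr3a by 0.15 (-0.60 to 0.89, limma adjusted p = 0.832). In this comparison 6.38% of genes were called and 18.8% had an unadjusted p under 0.05, with no member among either. The differences of Xlr4a, Xlr4b and Xlr4c were 0.23, 0.28 and 0.29 (exact permutation p = 0.3, 0.2 and 0.2). On the deposited values these 3 turned to -0.36, -0.37 and -0.40 (exact permutation p = 0.6, 0.6 and 0.5). No member separated the control sexes, against 15.3% of genes higher and 31.5% lower in males without overlap.

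The transcript forms behind these totals differed between libraries. Xlr3b has a spliced transcript of 9 exons (ENSMUST00000101486) and transcripts that retain introns. The deposited FPKM of the spliced form was 0.331, 1.64 and 0.145 in control females, and 0.303, 0 and 0.185 in cKO females. It was 3.78, 1.46 and 2.58 in control males and 3.59, 1.03 and 3.69 in cKO males. Thus 4 of the 6 males lay above the highest female, control female 2, with control male 2 and cKO male 2 below it, and cKO and control overlapped in each sex. The spliced form held 0 to 61.2% of the Xlr3b FPKM in females and 50.8 to 83.2% in males. In cKO female 2 the whole Xlr3b value of 1.61 FPKM came from the intron-retaining transcript ENSMUST00000137641, which had 3.04 FPKM in cKO female 3.

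**Figure D5:**
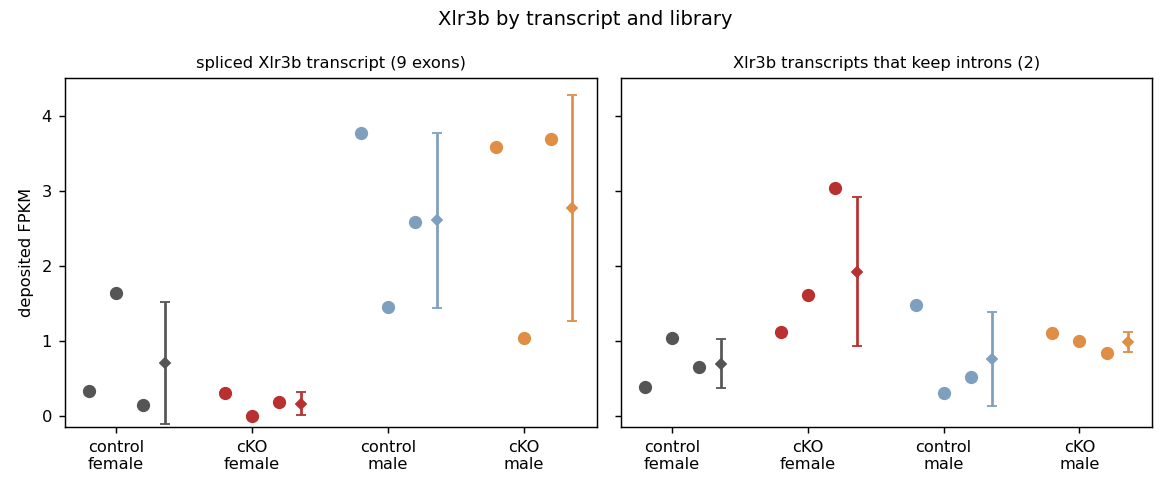
Deposited FPKM of the spliced Xlr3b transcript (left) and of the 2 Xlr3b transcripts that keep introns (right) in each library (points), with the mean and SD of each group of 3 (diamonds and bars). The cKO females are the lowest group for the spliced form, at 0.303 or less, and the highest group for the intron-keeping forms.

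In Xlr3a the spliced transcripts of 9 exons summed to 0.0918 to 0.540 FPKM in the 6 females, 0.0714 to 2.49 in control males and 0.522 to 1.76 in cKO males. The intron-retaining transcript ENSMUST00000172709 had 0.470, 0.478 and 1.23 FPKM in female controls, 0.910, 2.21 and 2.52 in female cKO libraries and 0.119 to 0.657 in the 6 males. The spliced share of Xlr3a FPKM was 2.26 to 24.8% in females and 9.38 to 65.1% in males, and the sexes overlapped through control male 2 at 9.38%. ENSMUST00000172709 was highest in cKO females 2 and 3 and control female 3, the 3 libraries with the highest receptor background, whereas ENSMUST00000137641 of Xlr3b also reached 0.995 FPKM in control male 1, at a background of 0.0274. The part of background in these values was not tested at the level of transcripts. Xlr3c has a single annotated transcript and allows no such comparison.

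Members varied together across libraries in males. Pearson's r of net FPKM between members over the 6 males, which span both genotypes, ran from 0.505 (Xlr3a and Xlr4b) to 0.974 (Xlr4b and Xlr4c). Xlr3b and Xlr3c, the pair with the most similar Xlr3 sequence, had r = 0.959 in males and 0.930 over the 6 females. In females r ran from 0.104 (Xlr3c and Xlr4b) to 0.941 (Xlr4a and Xlr4b), with 0.253 for Xlr3a and Xlr3c. The copies share reads and libraries, so these values describe the libraries and no p is given. Over all 12 libraries, the genes with a pattern most like the Xlr3 sum among 10993 protein-coding genes were Zfp995 (r = 0.937), Bnip2 (0.901), Aldh1l1 (0.895), Mapkapk5 (0.895) and Katnbl1 (0.881). For the Xlr4 sum they were Spata24 (0.867), Ccdc181 (0.866), Atp5g3 (0.856), Sgk3 (0.851) and Gm5148 (0.848).

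Choroid plexus, which lies against the hippocampus, was present in unequal amounts. The summed level of Ttr, Folr1, Kl and Kcne2 in females was 15.7, 5105 and 10.9 net FPKM for controls and 25.5, 33.0 and 40.2 for cKO. In males it was 3615, 1554 and 1237 net FPKM for controls and 2301, 41.8 and 43.7 for cKO. Control female 2, with the highest Xlr3b of the controls of its sex, and the control males were among the high libraries. The Xlr3 sum in cKO male 3 was 4.43 net FPKM with a low choroid plexus sum, about as high as the 4.41 of cKO male 1 with a high one. In cKO male 2, also with a low choroid plexus sum, the Xlr3 sum was 1.79. Control female 2 had the highest Xlr3 sum of the females, 2.75, and their highest choroid plexus sum. The part of choroid plexus in the Xlr3 levels was not tested.

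Other genes of the superfamily and of the reported Xlr3b pathway gave no call. Of 10 relatives, Sycp3 alone was high enough to be fitted, with log2 changes of -0.97 in females (limma adjusted p = 0.201) and 0.20 in males (limma adjusted p = 1). The founding gene Xlr had mean deposited FPKM of 1.23 and 1.93 in female controls and cKO libraries and of 1.70 and 1.93 in the male ones, and a mean of 0.468 after subtraction. Camk2a, the kinase mRNA reported as Xlr3b cargo, changed by -0.38 in females (limma adjusted p = 0.153) and -0.23 in males (limma adjusted p = 1). Tia1, the granule protein, changed by -1.12 (limma adjusted p = 0.117) and 0.32 (limma adjusted p = 1).

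Among 13 genes for ATRX, its partners and silencing factors, Atrx was the 1 gene called for the deletion, lower in females and in the mean of both sexes. Daxx, the H3.3 chaperone that works with ATRX, changed by -0.71 in females (limma adjusted p = 0.10) and 0.10 in males (limma adjusted p = 1). The corepressor gene Trim28 changed by -0.17 in females and 0.15 in males. The 4 other reported ATRX targets that could be fitted were not called. Csf2ra, a cytokine receptor subunit, changed by -1.14 in females (limma adjusted p = 0.073) and -0.76 in males (limma adjusted p = 1). Gtpbp6 had -1.13 in females (limma adjusted p = 0.0823) and -0.11 in males (limma adjusted p = 1). The alpha-globin genes Hba-a1 and Hba-a2 had 0.77 and 0.86 in females (limma adjusted p = 0.295 and 0.211), and -0.30 and -0.33 in males (limma adjusted p = 1 each).

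Genes around the cluster gave no call. Of 42 genes within 500 kb of a member, 22 were fitted and none was called for the deletion in either sex or in their mean with limma, where 12 in females, 0 in males and 6 in the mean had an unadjusted p under 0.05. Of all genes 38.8%, 1.61% and 26.1% had such a p. The smallest p in the mean of both sexes belonged to the creatine transporter Slc6a8, with a log2 change of -1.24 (limma adjusted p = 0.175). The kinase gene Pnck changed by -0.85, and the predicted gene Gm6858 by 0.78 (limma adjusted p = 0.175 and 0.180). Each of these means came mostly from the females. Slc6a8 changed by -1.92 in females and -0.56 in males. Pnck changed by -1.52 and -0.17, and Gm6858 by 1.43 and 0.13, in the same order. The median change of the 22 neighbours was 0.17 in females and -0.05 in males, against 0.11 and 0.06 over all genes.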

How the data were processed

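Per the labels' protocols, total RNA was extracted (miRVANA kit) and sequenced from ScriptSeq Complete Gold libraries, whose kit removes ribosomal RNA. Per the submitters' processing notes, HISAT2 2.0.4, StringTie and GRCm38.p6 were used. The sources used here give no trimming, strand use or annotation release, so overlapping and antisense genes cannot be told apart. Per the file headers, the deposited tables give FPKM and mean coverage of 137862 transcripts and no read counts. Depth was recovered from the ratio of both columns.

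Bases per gene were divided by the merged exon length (GENCODE M21, which held all 29 member transcripts at the same length). The median of 1461 receptor genes was subtracted, negative values were set to 0, and libraries were scaled by median-of-ratios over protein-coding genes of mean at least 5. limma 3.58.1 (R 4.3.3, trend and robust) fitted the 4 group means to log2(net FPKM + 0.5) for 22429 genes of mean at least 0.5. Folds of low genes are understated on this scale. All tests were two-sided; p-values were adjusted over all fitted genes (Benjamini-Hochberg, threshold 0.05). Members below the filter and Atrx were compared by exact permutation. Scripts used Python 3.11.15 and Biopython 1.88 and were tested on simulated data. Estimated reads are bases divided by 76.

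The named genes were the 6 members, Atrx, fixed lists, the neighbours of smallest p in the mean of both sexes, and the 5 genes most correlated with each sum. Members, lists and the subtraction were chosen with earlier results of these data known. Other settings were no subtraction, unscaled values, summed transcript FPKM, 0.5 of the background for X-linked genes of males, pseudocounts of 0.1 and 1, 2 filters, quantile scaling, a replicate block and leaving out libraries. A background from the Xlr5 genes and the values of spliced transcripts were added after seeing the data.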

Additional observations from a re-analysis of the deposited data

How the results depend on the processing

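No Xlr3 member was called in any of the 5 comparisons under the 22 to 24 other settings in which it was fitted, 12 of them leaving out a library. The Xlr4 genes were fitted in 3 settings, none of them leaving out a library, and were not called. Of the 392 tests with limma, 0 passed after adjustment and 11 had an unadjusted p under 0.05, and the smallest adjusted p was 0.0581, for Xlr4c in females on unscaled deposited FPKM (log2 change 1.07). The direction of the Xlr3 changes was not fixed: 68 of 347 values turned sign, and the cause was not tested. Whether the replicate numbers pair the libraries is not known. Deviations of same-numbered control and cKO libraries correlated at 0.184, -0.309 and 0.395 in females and 0.021, -0.0959 and 0.185 in males. With 3 libraries per group such correlations cannot decide it. With the replicate number as a block, 0 members were called and the changes of Xlr3b stayed at 0.15 in females and 0.12 in males, whereas the limma call of Atrx was lost in females and in the mean of both. Control males against control females could not be fitted with the block. Without cKO females 2 and 3 together, Xlr3a turned to -0.086 in the difference between the sexes.

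Without subtraction, Xlr3b turned to -0.046 in females, -0.026 in males, -0.036 in their mean and 0.020 in the difference between the sexes, and Xlr3a to -0.020 in that difference. With summed transcript FPKM, Xlr3b was at -0.42 in females, -0.17 in the mean and 0.49 in the difference, and Xlr3c at -0.30, -0.19 and 0.23, and at -0.071 in males. Quantile scaling gave -0.24, -0.055 and -0.12 for Xlr3a, Xlr3b and Xlr3c in females, -0.064, -0.027 and -0.24 in males, -0.15, -0.041 and -0.18 in the mean, and 0.028 for Xlr3b in the difference. That difference was also 0.10 for Xlr3b with a pseudocount of 0.1 and, with the halved X background of males, 0.0093 for Xlr3b and 0.045 for Xlr3c. For Xlr3a it was -0.48 on unscaled deposited FPKM and -0.19 with the Xlr5 background, an alternative chosen after seeing the data.

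Leaving out each library in turn, Xlr3a ranged from -0.11 to 0.21 in females, -0.13 to 0.44 in males, -0.20 to 0.36 in the difference, -0.027 to 0.26 in the mean and -0.092 to 0.47 between control sexes. Xlr3b ranged from -0.26 to 0.68, -0.15 to 0.44, -0.57 to 0.38 and -0.073 to 0.40 in the same order up to the mean, and Xlr3c from -0.29 to 0.45, -0.22 to 0.36, -0.42 to 0.32 and -0.13 to 0.24. Between control sexes Xlr3b ranged from 0.74 to 1.48 and Xlr3c from 0.40 to 1.11. Over all settings the smallest unadjusted limma p of Xlr3b there was 0.00373, without subtraction, at an adjusted p of 0.0909. Levels of the Xlr3 and Xlr4 sums moved by more than 1 SD between deposited and net FPKM in all 4 groups, a step that also changes the length measure and scaling. In females the background, above 1 FPKM in cKO females 2 and 3, limits what can be said of Xlr4.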

Other observations

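Germ cells are a main site of Xlr expression, and other germ cell genes were measured in the same libraries. The summed net FPKM of Dazl, Ddx4, Sycp1, Sycp2, Tex101 and Mael was 3.08 to 3.71 in control females, 1.69 to 3.78 in cKO females, 3.65 to 4.24 in control males and 3.44 to 4.45 in cKO males. The germ cell RNA-binding gene Dazl had a mean of 0.912 net FPKM and the helicase gene Ddx4 one of 1.26, with no call among the 3 of the 6 genes that could be fitted, where limma gave 1 unadjusted p under 0.05 in females and 0 in males, against 38.8% and 1.61% of all genes. The lowest sum, 1.69, was that of cKO female 2, and control and cKO overlapped in both sexes.

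Between control males and control females, the neighbour Atp2b3, a calcium pump gene near the cluster, had a log2 difference of -0.90 (limma adjusted p = 0.00371), lower in males, and was the 1 neighbour called of 22, against 6.38% of all genes. Among the silencing factors, Trim28 was the 1 gene of 13 called in that comparison, at -0.47 (limma adjusted p = 0.0287).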
